A study of Mus musculus with 5 samples.

Results

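The genes described here were 35 genes of glycolysis, glycogen metabolism and the pentose phosphate pathway, listed by symbol and not by their values. Earlier results of these data were known when the list was chosen. All 35 listed symbols were found among the 23234 gene symbols of each library, the pyruvate kinase gene under its older symbol Pkm2. They were ordered in 6 groups along the pathways, namely 3 glucose and lactate transporters, 9 genes from hexokinase to aldolase, 9 genes from triose phosphate to lactate, 3 PFKFB regulators, 6 glycogen genes and 5 genes of the pentose phosphate pathway.

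Each of 5 libraries came from sorted bone marrow (BM) cells of C57BL/6 mice aged 7 weeks with the genotype +/Ym1Venus, in which the fluorescent protein Venus reports expression of Ym1, a chitinase-like protein encoded by Chi3l3. Ym1+Ly6Chi monocytes (Ly6C+ CD115+ Venus+), Ym1-Ly6Chi monocytes (Ly6C+ CD115+ Venus-) and Ly6G+ neutrophils were taken 48 h after an intravenous dose of 100 µg LPS per mouse. Naïve monocytes (Ly6C+ CD115+ Venus-) and naïve neutrophils (Ly6G+) came from mice without treatment. The reporter allele was thus carried by every group, no library of naïve Ym1+ cells was analysed here, and the labels do not say how many mice gave a library. The study compared monocyte subsets and neutrophils in LPS-induced inflammation.

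Glycolysis converts glucose through a chain of phosphorylated sugars to pyruvate, and lactate dehydrogenase turns pyruvate into lactate, which regenerates the NAD+ that glyceraldehyde-3-phosphate dehydrogenase uses. Phosphofructokinase is the main point of control, and it is activated by fructose 2,6-bisphosphate, the product of the PFKFB enzymes. Glucose 6-phosphate can instead be stored as glycogen or enter the pentose phosphate pathway, whose oxidative steps make the NADPH used by the phagocyte oxidase and by antioxidant enzymes. Mature neutrophils have few mitochondria, rely on glycolysis for ATP and carry glycogen stores.

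Expression was given as FPKM, fragment numbers scaled by transcript length and by library size, so that levels are per length and could be compared between genes. The text gives differences between libraries on the scale of log2(FPKM + 1), which understates those of low genes. A gene was compared where its FPKM reached 1 in at least 1 of the libraries, and it was counted as higher or lower where the difference on that scale was 2-fold or more. With 1 library per group no test, no p-value and no replicate check was possible, and each difference describes a pair of libraries. The spacing of low FPKM values gave a rough estimate of depth, by which Ym1- monocytes, the shallowest library, had 44.4% of the fragments of Ym1+ monocytes, the deepest. Neutrophil markers (10 of 11 listed were found, Ly6g was not) summed to FPKM values of 309496 in naïve neutrophils and 304601 in neutrophils after LPS, against 1280, 2344 and 15878 in naïve, Ym1- and Ym1+ monocytes. The 10 monocyte markers summed to between 6098 and 7152 in the monocyte libraries and to 1724 and 2031 in the neutrophil libraries, where Ly6c1 and Ly6c2 made up most of the sum and Ccr2 lay at 0.99 and 1.13.

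**Figure D1:**
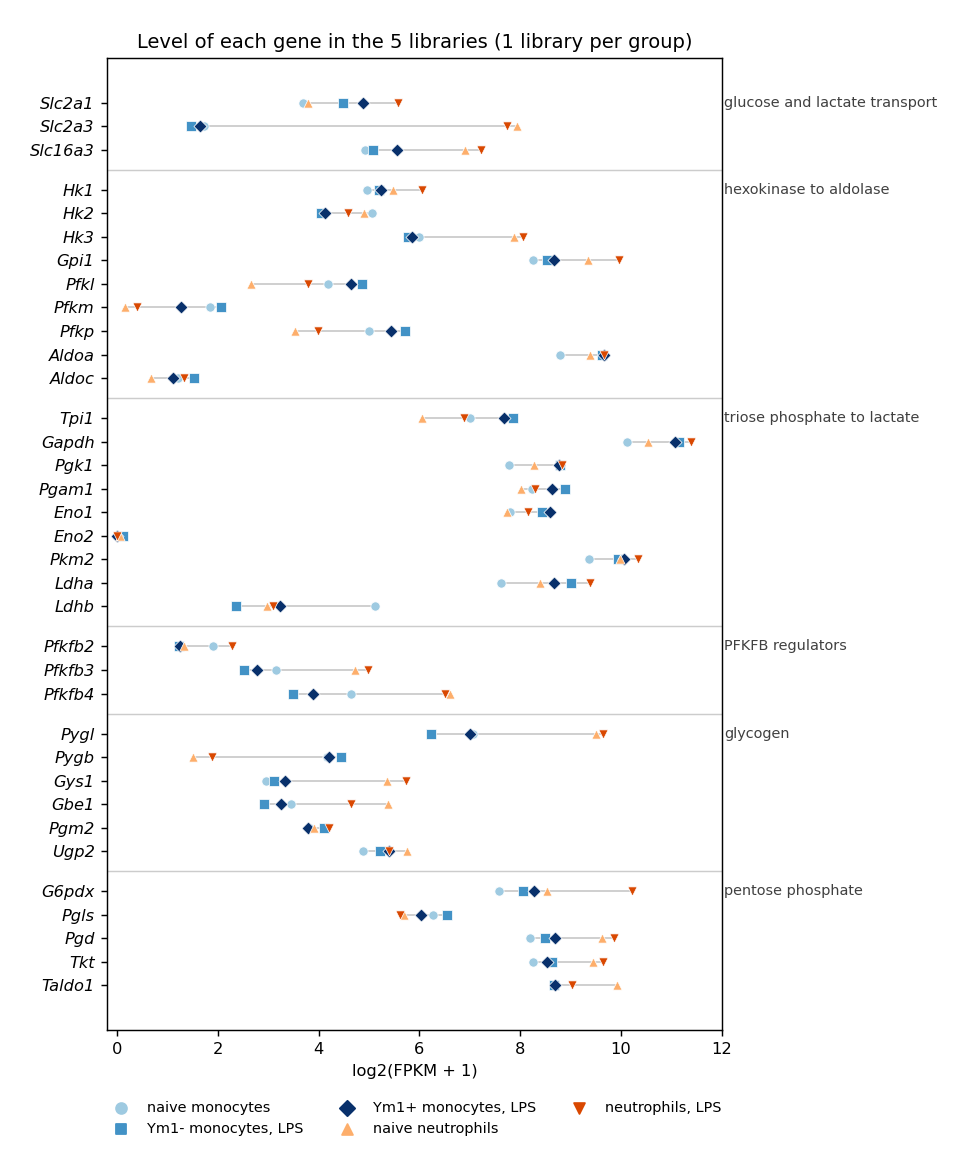
Level of each of the 35 genes in the 5 libraries, with log2(FPKM + 1) on the horizontal axis, 1 point per library and no replicates. The neutrophil points lie far to the right of the monocyte points for Slc2a3, Pygl, Gys1 and Pfkfb4, and to the left for Pygb and the 3 phosphofructokinase genes Pfkl, Pfkm and Pfkp.

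Neutrophils and monocytes differed in the levels of genes at several steps of the pathways. In naïve neutrophils the transporter Slc2a3, the glycogen genes Pygl, Gys1 and Gbe1, the lactate exporter Slc16a3, the hexokinase Hk3 and the regulators Pfkfb3 and Pfkfb4 were at least 2-fold higher than in naïve monocytes, as were Gpi1 and the pentose phosphate genes Pgd, Tkt and Taldo1. The 3 phosphofructokinase genes, Pygb and Ldhb were at least 2-fold lower. Of the 34 genes compared, 12 were thus higher and 5 lower, while over all 10944 genes compared 10.8% were higher and 42.7% lower. The median difference of the 34 genes was 0.54, against -0.79 for all genes, and 28 of the 34 lay above the median of all genes. In a bulk library, fewer cells of a type and less RNA per cell cannot be told apart.

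After LPS, neutrophils were compared with Ym1- monocytes, which passed the same Venus- gate as the naïve monocytes. Here 14 of the 34 genes were higher by 2-fold or more and 4 lower, beside 11% higher and 40.8% lower of all 10676 genes. The median was 0.47 for the 34 genes and -0.74 for all genes. These 4 libraries are not shared between the untreated and the LPS comparison, and 11 genes were higher in both (Slc2a3, Slc16a3, Hk3, Gpi1, Pfkfb3, Pfkfb4, Pygl, Gys1, Gbe1, Pgd and Tkt) and 4 lower in both (Pfkl, Pfkm, Pfkp and Pygb). Over the 10397 genes compared in both, 8.16% were higher in both and 35.6% lower in both. On the deposited scale, 22 of the 34 genes were above 0 in both, 9 below 0 in both and 3 opposite, beside 22.1%, 68.1% and 9.82% of those 10397 genes. Over all 5 libraries, 15 of 34 genes lay above every monocyte library in both neutrophil libraries, beside 17.3% of 11267 genes, and 6 lay below, beside 59.5%.

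**Figure D2:**
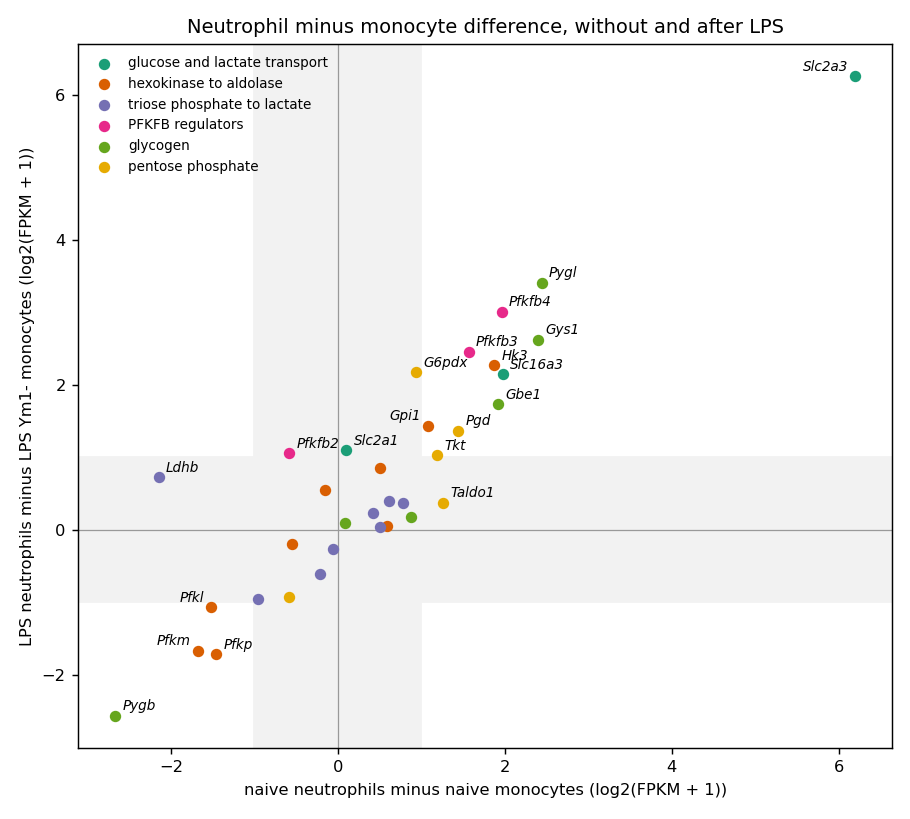
Difference between neutrophils and monocytes in log2(FPKM + 1), without treatment on the horizontal axis and after LPS (against Ym1- monocytes) on the vertical axis, with 1 point per gene for 34 genes and the band of less than 2-fold shaded. Slc2a3 lies alone at 6.20 and 6.26, Pygl, Gys1, Gbe1, Pfkfb3 and Pfkfb4 lie in the upper right, and Pygb, Pfkl, Pfkm and Pfkp lie in the lower left.

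The scale of the neutrophil libraries bears on these counts. S100a8 and S100a9, which encode calprotectin, took 30.0% of the summed FPKM in naïve neutrophils and 27.7% in neutrophils after LPS, and between 0.17% and 2.39% in the monocyte libraries. With median-of-ratios scaling the median of all genes moved from -0.79 to -0.08 in the untreated comparison and from -0.74 to -0.05 after LPS. The share of higher genes among all genes at least 2-fold apart went from 20.2% to 47.6% and from 21.2% to 50.5%. TPM moved them the other way, the medians to -1.20 and -1.17 and the shares to 13.3% and 13.2%. The median of the set without treatment was 1.38 with median-of-ratios scaling and 0.14 with TPM. Under median-of-ratios scaling, TPM and a pseudocount of 0.1 alike, 8 of the 11 genes higher in both comparisons stayed at least 2-fold higher (the 11 without Gpi1, Pgd and Tkt). Of the 4 lower genes, 2 (Pfkm and Pygb) stayed at least 2-fold lower. The signs counted above also depend on the scale. With TPM, Slc2a1 and Pgm2 changed sign without treatment, and Aldoa, Gapdh, Pgk1, Pkm2, Ldha, Pgm2, Ugp2 and Taldo1 after LPS. With median-of-ratios scaling, Hk2, Pgam1, Eno1 and Pgls changed sign without treatment, and Aldoc, Pgam1 and Eno1 after LPS. The differences below are those of the deposited FPKM, and where a value relative to the median of all genes is given, it is named so. Markers of cycling cells moved with the lineage as well, with sums of 131 and 222 in the neutrophil libraries and between 526 and 800.2 in the monocyte libraries, with 5 of 5 at an FPKM of 1 or more in each library, and their part in the differences was not tested.

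Of the 2 facilitative glucose carriers, Slc2a1 had the higher level in the monocyte libraries and Slc2a3 in the neutrophil libraries. Slc2a3, which encodes GLUT3, a carrier of high affinity, had FPKM values of 2.31 in naïve monocytes, 1.76 in Ym1- monocytes, 2.14 in Ym1+ monocytes, 243 in naïve neutrophils and 212 in neutrophils after LPS. Both neutrophil libraries thus lay far above the 3 monocyte libraries, which spanned less than 1 FPKM among themselves, and the ratio of the levels was 105-fold without treatment and 119.9-fold after LPS. The 95% counting interval of the log2 ratio was 6.32 to 7.12 without treatment and 6.37 to 7.45 after LPS, and like all such intervals here it rests on the estimated depth and covers counting error only. Slc2a1, which encodes the widely expressed carrier GLUT1, was at 11.9 in naïve monocytes, 21.2 in Ym1-, 28.3 in Ym1+, 12.9 in naïve neutrophils and 46.6 in neutrophils after LPS. Its lowest levels were those of the untreated libraries of both lineages, and the neutrophil and monocyte levels overlapped. Slc2a3 made up 16.2%, 7.68% and 7.01% of the summed FPKM of these carriers in naïve, Ym1- and Ym1+ monocytes, and 94.95% and 81.9% in naïve and LPS neutrophils. Slc16a3, which encodes the lactate exporter MCT4, was at 29.3, 32.7 and 45.9 in naïve, Ym1- and Ym1+ monocytes and at 118 and 148 in naïve and LPS neutrophils, so that the lineages did not overlap. Of all genes, 17.3% lay above every monocyte library in both neutrophil libraries. All 3 transporters were at least 2-fold higher in neutrophils after LPS than in Ym1- monocytes, beside 11% of all genes. Slc2a1 was at 1.10 there, though it was less than 2-fold higher with TPM. The 250 bases upstream of the Slc2a1 start are chr4:119108495-119108744 on the plus strand of GRCm38.p6. They are shown because the leading gene of the Slc2a1 and Slc2a3 pair differed between libraries. No promoter was given for Slc2a3. Capitals mark the letters ACGTG, the core of hypoxia-inducible factor sites.
Slc2a1 promoter: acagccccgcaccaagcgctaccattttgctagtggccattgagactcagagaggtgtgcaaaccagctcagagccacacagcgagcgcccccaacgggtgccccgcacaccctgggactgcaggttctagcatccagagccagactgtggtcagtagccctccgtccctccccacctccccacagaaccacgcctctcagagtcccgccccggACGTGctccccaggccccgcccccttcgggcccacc

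Within the steps from hexokinase to aldolase, Hk3 and Gpi1 were higher and all 3 phosphofructokinase genes lower in neutrophils. These were 2 higher and 3 lower of 9 genes in each lineage comparison, beside 10.8% higher and 42.7% lower of all genes without treatment and 11% and 40.8% after LPS, so lower genes were not in excess of the background. Hk3, a hexokinase of myeloid cells, was at 62.8, 54.0 and 57.0 in naïve, Ym1- and Ym1+ monocytes and at 233 and 265 in naïve and LPS neutrophils. Gpi1, which interconverts glucose 6-phosphate and fructose 6-phosphate, was at 306, 368 and 410.0 in the monocytes and at 648 and 997 in the neutrophils. In both genes the lowest neutrophil library lay above the highest monocyte library, beside 17.3% of all genes. Pfkl, the liver type of phosphofructokinase, was at 17.1, 28.1 and 24.1 in naïve, Ym1- and Ym1+ monocytes and at 5.32 and 12.8 in naïve and LPS neutrophils. Pfkp, the platelet type and the most abundant of the 3 in every library, was at 30.8, 51.3 and 42.2 in the monocytes and at 10.6 and 14.9 in the neutrophils. Pfkm, the muscle type, was at 2.56, 3.19 and 1.39 in the monocytes and at 0.11 and 0.32 in the neutrophils, about 2.92 and 6.83 fragments. On the deposited scale these genes lay below all monocyte libraries in both neutrophil libraries, beside 59.5% of 11267 genes. Relative to the median of all genes, Pfkl and Pfkp were 0.73 and 0.67 lower in naïve neutrophils, less than 2-fold, and with median-of-ratios scaling they were lower by less than 2-fold in both comparisons. With that scaling Hk1 was at least 2-fold higher in both comparisons, Aldoa in the untreated and Hk2 in the LPS comparison, and with TPM Gpi1 was higher by less than 2-fold in both. For Pfkm the 95% counting interval of the log2 ratio was -6.79 to -2.82 without treatment and -4.71 to -2.12 after LPS.

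Because a share within a library does not move with its scaling, the balance of these steps was also read within each library. The summed FPKM of the 3 hexokinase genes was 2.49, 1.28 and 1.63 times that of the 3 phosphofructokinase genes in naïve, Ym1- and Ym1+ monocytes, and 19.1 and 12.6 times in naïve and LPS neutrophils. Hk3 made up 50.1% to 51.6% of the hexokinase sum in the monocyte libraries and 76.3% and 74.95% in naïve and LPS neutrophils. Hk2, the inducible hexokinase bound to mitochondria, was at 32.4, 15.5 and 16.5 in naïve, Ym1- and Ym1+ monocytes and at 29.0 and 23.1 in naïve and LPS neutrophils, and the lineages overlapped. Its share of the sum was 25.8% in naïve monocytes and between 6.53% and 14.9% in the other 4 libraries. Among the phosphofructokinases Pfkp led with 53.1% to 66.0% in the 5 libraries, and the share of Pfkl was 45.7% in neutrophils after LPS and between 33.3% and 35.6% elsewhere. Aldoa, the main aldolase, ranged from 443 in naïve monocytes to 815 in neutrophils after LPS and made up over 99% of its pair in each library. Hk1, the hexokinase of most tissues, ranged from 30.2 to 65.5, with both neutrophil libraries above the monocytes on the deposited scale, beside 17.3% of all genes. Its difference without treatment was 0.50, and 0.11 with TPM. Aldoc, the brain type of aldolase, ranged from 0.59 to 1.85.

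**Figure D3:**
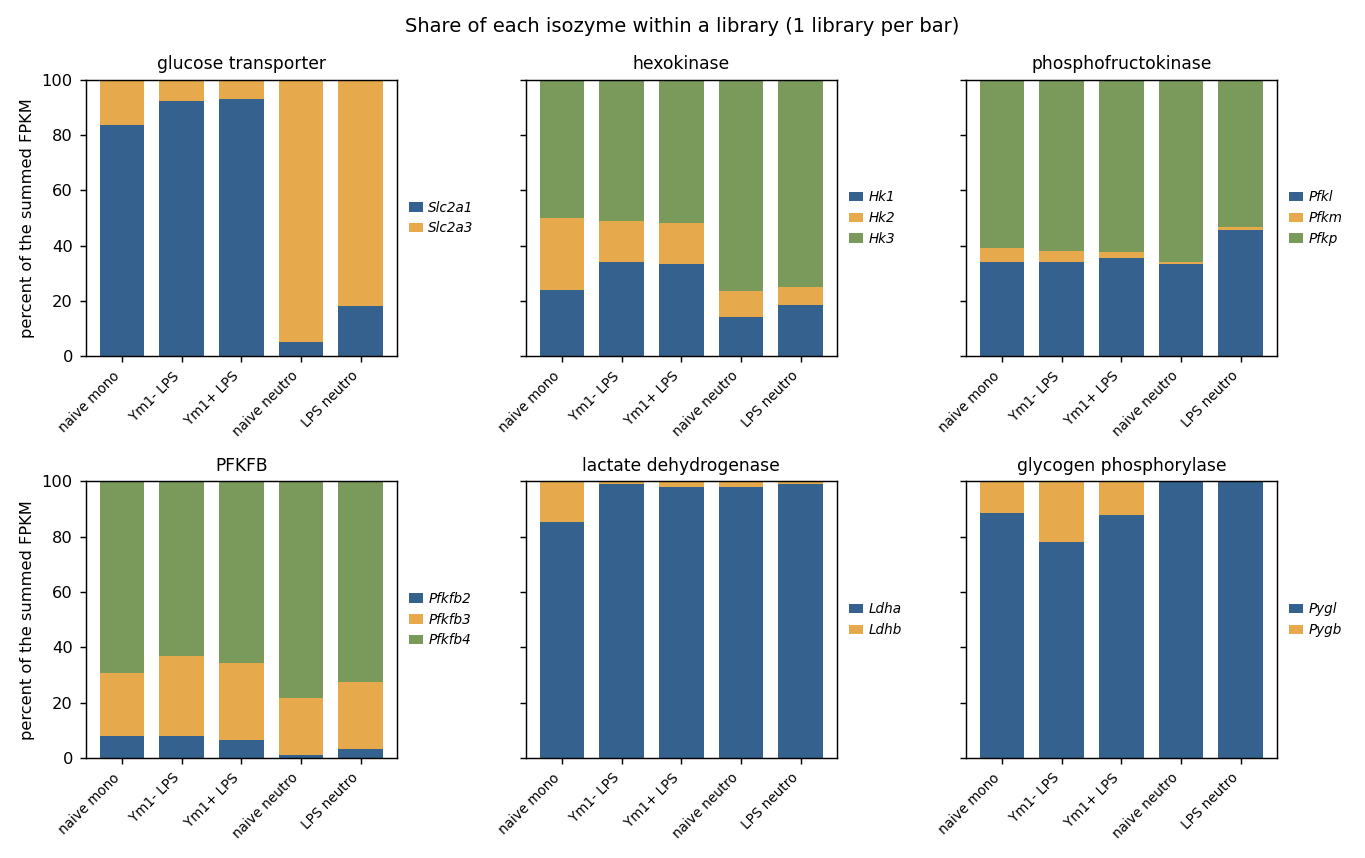
Share of each isozyme in the summed FPKM of its family, in percent on the vertical axis, with 1 bar per library and no replicates. Slc2a1 leads in the 3 monocyte libraries and Slc2a3 in both neutrophil libraries, and Hk3 takes 74.95% and 76.3% of the neutrophil bars. Pygb takes 11.3% to 21.8% of the monocyte bars and 0.25% and 0.33% of the neutrophil bars. Ldhb takes 14.7% in naïve monocytes and 0.79% to 2.01% in the other libraries of both lineages.

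From triose phosphate to lactate, no gene was at least 2-fold higher in neutrophils in either comparison, beside 10.8% and 11% of all genes. Of the 8 genes compared, only Ldhb was at least 2-fold lower in naïve neutrophils, beside 42.7% of all genes. After LPS none was lower, beside 40.8%. The median of the 8 genes was 0.18 without treatment and 0.14 after LPS, against -0.79 and -0.74 for all genes. Above the median of all genes lay 6 of the 8 without treatment and 7 after LPS. With median-of-ratios scaling Gapdh, Pkm2 and Ldha were at least 2-fold higher in neutrophils in both comparisons and Pgk1 without treatment. With TPM Tpi1 was at least 2-fold lower in both and Pgam1 after LPS, so these counts depend on the scale. Gapdh, the most abundant gene of the set in every library, was at 1119, 2276 and 2155 in naïve, Ym1- and Ym1+ monocytes and at 1497 and 2676 in naïve and LPS neutrophils. Ldha, the lactate dehydrogenase subunit that favours lactate formation, was at 196, 516 and 407 in the monocytes and at 336 and 669 in the neutrophils. In both genes the untreated libraries of the 2 lineages lay below their LPS libraries. Pgk1, which makes the first ATP of the pathway, followed the same order, with 219, 443 and 439 in the monocytes and 309.9 and 456 in the neutrophils. Tpi1, Pgam1, Eno1 and Pkm2 ranged from 65.5 to 230.15, 258 to 475, 212 to 384 and 659 to 1291. Tpi1 lay lower in both neutrophil libraries than in the 3 monocyte libraries, beside 59.5% of all genes. Eno2, the neuronal enolase, was listed at 0 in 3 libraries and stood for about 1.04 fragments in each of the others, so it was not compared. Several of these genes have processed pseudogenes in the mouse genome, and reads may be split between the copies.

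Ldhb, the subunit that favours the conversion of lactate to pyruvate, was high in 1 library. Its FPKM was 33.9 in naïve monocytes, 4.13 in Ym1-, 8.35 in Ym1+, 6.87 in naïve neutrophils and 7.499 in neutrophils after LPS. Naïve monocytes stood apart and the other 4 libraries spanned less than 5 FPKM. Ldhb made up 14.7% of the Ldha and Ldhb sum in naïve monocytes and between 0.79% and 2.01% elsewhere. Naïve neutrophils minus naïve monocytes gave -2.15, or 1.36 below the median of all genes, and after LPS it was 0.73 in the opposite direction, from about 22.8 fragments in Ym1- monocytes. The 250 bases upstream of the Ldhb start are chr6:142507958-142508207 on the minus strand of GRCm38.p6. They are shown because Ldhb was among the genes of the set furthest apart between naïve neutrophils and naïve monocytes. None of the 5 motifs searched was found in them.
Ldhb promoter: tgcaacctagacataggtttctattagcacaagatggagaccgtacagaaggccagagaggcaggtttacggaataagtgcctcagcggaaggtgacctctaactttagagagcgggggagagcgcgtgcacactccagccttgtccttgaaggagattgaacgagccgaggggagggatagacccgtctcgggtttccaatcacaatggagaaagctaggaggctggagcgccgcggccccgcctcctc

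Of the PFKFB regulators, which make and degrade the activator of phosphofructokinase, Pfkfb3 and Pfkfb4 were at least 2-fold higher in neutrophils in both comparisons. Over all genes compared in both, 8.16% were higher in both. Pfkfb4 was at 23.9, 10.3 and 13.8 in naïve, Ym1- and Ym1+ monocytes and at 96.1 and 90.1 in naïve and LPS neutrophils. Pfkfb3, the isozyme with the highest ratio of kinase to phosphatase activity, was at 7.87, 4.72 and 5.86 in the monocytes and at 25.3 and 30.4 in the neutrophils. For both, no monocyte library reached the neutrophil levels, beside 17.3% of all genes. Pfkfb2 was low throughout, with 2.75, 1.32 and 1.37 in the monocytes and 1.504 and 3.82 in the neutrophils, and the lineages overlapped. It was at least 2-fold higher in neutrophils after LPS (1.05), though not with TPM (0.83), and 0.58 lower in naïve neutrophils. Pfkfb4 led the family with 63.0% to 78.2% of its sum in the 5 libraries. The ratio of Pfkfb4 to Pfkp was 0.78, 0.201 and 0.33 in naïve, Ym1- and Ym1+ monocytes and 9.10 and 6.04 in naïve and LPS neutrophils.

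Glycogen genes were among the genes of the set furthest apart between the lineages. Of the 6, 3 were at least 2-fold higher and 1 lower in both comparisons, beside 8.16% and 35.6% of all genes. Pygl, the liver type of glycogen phosphorylase, which releases glucose 1-phosphate from glycogen, was at 132, 74.5 and 127 in naïve, Ym1- and Ym1+ monocytes and at 724 and 801 in naïve and LPS neutrophils. Gys1, the glycogen synthase outside the liver, was at 6.78, 7.68 and 9.03 in the monocytes and at 39.98 and 52.4 in the neutrophils. Gbe1, the branching enzyme, was at 9.96, 6.55 and 8.45 in the monocytes and at 40.5 and 24.1 in the neutrophils. Enzymes of both synthesis and breakdown were thus higher in neutrophils, and the 2 groups of libraries did not overlap for these genes. Of all genes, 17.3% lay above every monocyte library in both neutrophil libraries. The ratio of Pygl to Gys1 was 18.1 and 15.3 in naïve and LPS neutrophils and between 9.69 and 19.5 in the monocytes, so it did not separate the lineages. Pygb, the brain type of phosphorylase, ran the other way, with 16.9, 20.7 and 17.6 in the monocytes and 1.82 and 2.66 in the neutrophils. Its share of the phosphorylase sum was 11.3%, 21.8% and 12.11% in naïve, Ym1- and Ym1+ monocytes and 0.25% and 0.33% in naïve and LPS neutrophils, which no scaling of a library changes. Ugp2, which makes UDP-glucose for glycogen synthase, ranged from 28.3 to 52.7, with Ym1+ monocytes at 40.9 and neutrophils after LPS at 41.2, and Pgm2, a phosphoglucomutase, from 12.8 to 17.4. The symbol Pgm2 is ambiguous, because RefSeq uses it for a gene on chromosome 5 and also lists it as an older name of Pgm1.

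The bases upstream of 3 of these genes are shown, because Pygl and Gys1 were the glycogen genes furthest above and Pygb the gene furthest below the monocyte level in naïve neutrophils. The windows of 250 bases in GRCm38.p6 are chr12:70227684-70227933 on the minus strand for Pygl, chr2:150786546-150786795 on the plus strand for Pygb and chr7:45434589-45434838 on the plus strand for Gys1. Capitals mark ACGTG or its reverse complement in Pygl and Pygb, and the reverse complement of GGAAGT, the core of ETS factor sites, in Gys1.
Pygl promoter: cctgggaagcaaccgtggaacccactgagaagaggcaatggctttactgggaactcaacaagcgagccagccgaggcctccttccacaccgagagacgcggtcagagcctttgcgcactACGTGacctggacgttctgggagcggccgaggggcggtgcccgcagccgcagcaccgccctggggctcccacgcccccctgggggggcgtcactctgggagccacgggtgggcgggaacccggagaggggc
Pygb promoter: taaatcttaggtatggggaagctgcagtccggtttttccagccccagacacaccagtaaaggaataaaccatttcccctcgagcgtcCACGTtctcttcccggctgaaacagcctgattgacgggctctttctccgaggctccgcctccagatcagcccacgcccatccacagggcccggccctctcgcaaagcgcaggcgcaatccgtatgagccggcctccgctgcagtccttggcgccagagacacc
Gys1 promoter: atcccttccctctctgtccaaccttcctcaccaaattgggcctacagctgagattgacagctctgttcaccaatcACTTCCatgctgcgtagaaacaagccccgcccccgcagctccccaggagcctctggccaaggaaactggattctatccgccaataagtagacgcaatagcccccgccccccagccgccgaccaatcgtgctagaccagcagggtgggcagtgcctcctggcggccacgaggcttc

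Of 5 pentose phosphate genes, 3 were at least 2-fold higher in neutrophils in each comparison, and 0 were at least 2-fold lower. Pgd and Tkt were higher in both, Taldo1 in the untreated and G6pdx in the LPS comparison. Over all genes, 10.8% were higher and 42.7% lower without treatment, and 11% and 40.8% after LPS. G6pdx, the first and rate-limiting enzyme, which makes NADPH, was at 192, 264 and 311 in naïve, Ym1- and Ym1+ monocytes, at 368 in naïve neutrophils and at 1199 in neutrophils after LPS. Pgd, which makes the second NADPH of the pathway, was at 291, 360.2 and 415 in the monocytes and at 793 and 932 in the neutrophils. The lineages did not overlap for either gene, and neutrophils after LPS stood apart from the other 4 libraries for G6pdx. Tkt, the transketolase of the non-oxidative steps, was at 303, 394 and 369 in the monocytes and at 694 and 804 in the neutrophils. Taldo1, the transaldolase, was at 406, 406 and 414 in the monocytes, at 972 in naïve neutrophils and at 525 after LPS. The monocyte levels of Taldo1 lay within 8 FPKM of each other, and both neutrophil levels lay above them. Pgls, the lactonase between G6pdx and Pgd, ranged from 48.1 to 92.2 and was lower in both neutrophil libraries than in the 3 monocyte libraries. Of all genes, 17.3% lay above every monocyte library in both neutrophil libraries and 59.5% below. With TPM, Tkt was less than 2-fold higher in both comparisons, Taldo1 in the untreated and Pgd in the LPS comparison, Pgls was at least 2-fold lower after LPS and Taldo1 went from 0.37 to -0.08 in the LPS comparison.

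**Figure D4:**
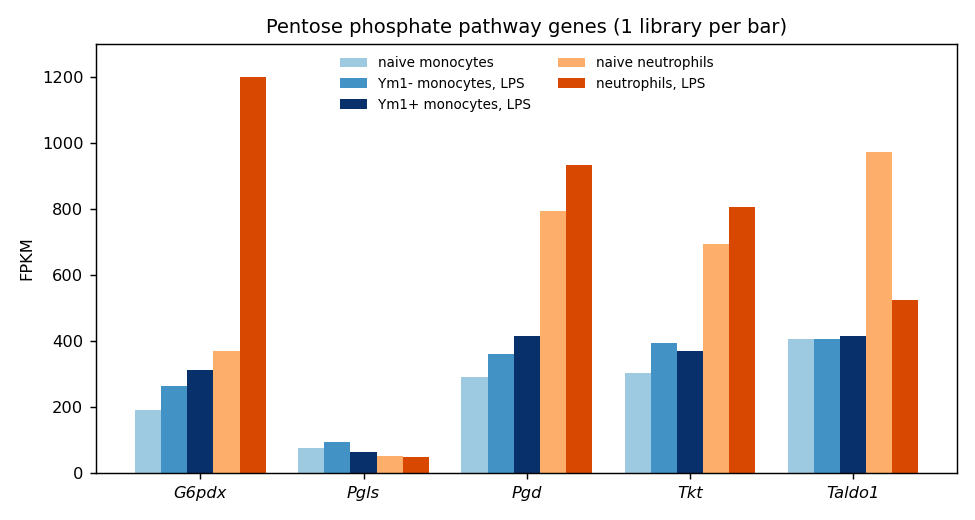
FPKM of the 5 pentose phosphate genes on the vertical axis, with 1 bar per library and no replicates. G6pdx reaches 1199 in neutrophils after LPS and 368 or less in the other 4 libraries, Taldo1 is highest in naïve neutrophils at 972, and Pgd and Tkt are higher in both neutrophil libraries than in the 3 monocyte libraries.

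The LPS comparison of neutrophils asked how these genes stood 48 h after LPS within 1 lineage. Slc2a1 (log2 difference 1.78), G6pdx (1.70) and Pfkl (1.13) were at least 2-fold higher after LPS, and no gene of the set was at least 2-fold lower. This was 3 higher of 33 compared, or 9.09%, close to the 8.96% of all 9583 genes, of which 5.35% were lower. The median of the set was 0.32 against 0.07 for all genes, and 26 of 33 lay above the median of all genes. The 8 genes from triose phosphate to lactate all lay above it, though Ldhb by only 0.04. Their median was 0.49, with Ldha at 0.99 and Gapdh at 0.84. Of the 3 genes, Slc2a1 had a 95% counting interval of the log2 ratio from 1.69 to 2.02 and Pfkl from 1.02 to 1.54. The lowest value of the set was that of Taldo1, -0.89, which was -1.01 with TPM. As G6pdx was higher and Taldo1 lower, the ratio of G6pdx to Taldo1 was 0.38 in naïve neutrophils and 2.28 after LPS, and G6pdx made up 12.8% and 34.2% of the summed FPKM of the 5 pentose phosphate genes. Pgd and Tkt kept their shares within 2 percentage points, with 27.6% and 26.6% for Pgd and 24.1% and 22.9% for Tkt. The glycogen and PFKFB genes that marked the neutrophils stood within 2-fold of their naïve level after LPS, with Pygl at 0.15, Gys1 at 0.38, Pfkfb4 at -0.09, Pfkfb3 at 0.25 and Gbe1 at -0.72. Markers of other cells moved with this comparison, with sums in naïve neutrophils and after LPS of 54.5 and 5.97 for platelets, 25.5 and 7.25 for erythroid cells, 27.0 and 9.03 for macrophages, 17.4 and 0.99 for eosinophils and 131 and 222 for cycling cells. An FPKM of 1 was reached by 5 and 1 of the 5 platelet markers, 2 and 2 of 9 erythroid, 6 and 5 of 6 macrophage, 3 and 0 of 4 eosinophil and 5 and 5 of 5 cycling markers, and their part in these differences was not tested.

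In Ym1- monocytes 48 h after LPS, compared with naïve monocytes of the same Venus- gate, 3 of the 8 genes from triose phosphate to lactate were at least 2-fold higher and 1 lower, while with TPM Ldha alone was higher. Ldha (1.39), Gapdh (1.02) and Pgk1 (1.02) were at least 2-fold higher, and Ldhb (-2.76), Pfkfb4 (-1.14) and Hk2 (-1.02) were at least 2-fold lower. This was 3 higher and 3 lower of 34 compared, beside 2.86% higher and 4.72% lower of all 10714 genes. The median was 0.28 for the set and 0.00 for all genes, and 25 of 34 lay above the median of all genes. By group the median was 0.75 for the 8 genes from triose phosphate to lactate, 0.31 for the pentose phosphate genes, 0.22 for the glycogen genes and -0.69 for the PFKFB regulators. Of the 8 genes from triose phosphate to lactate, 7 lay above the median of all genes, the exception being Ldhb, and so did the 5 pentose phosphate genes, Taldo1 by only 0.00089. Gapdh, Pgk1 and Hk2 lay close to 2-fold, and with TPM Gapdh and Pgk1, at 0.94 each, and with median-of-ratios scaling Hk2, at -0.98, were less than 2-fold apart. The 95% counting interval of the log2 ratio was -3.70 to -2.40 for Ldhb, -1.48 to -0.95 for Pfkfb4 and -1.24 to -0.89 for Hk2. Eosinophil markers summed to 4.03 in naïve and 40.5 in Ym1- monocytes and macrophage markers to 1.81 and 26.9. Of the eosinophil markers 1 and 3 of 4, and of the macrophage markers 0 and 4 of 6, reached an FPKM of 1 in naïve and Ym1- monocytes, and their part in these differences was not tested.

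**Figure D5:**
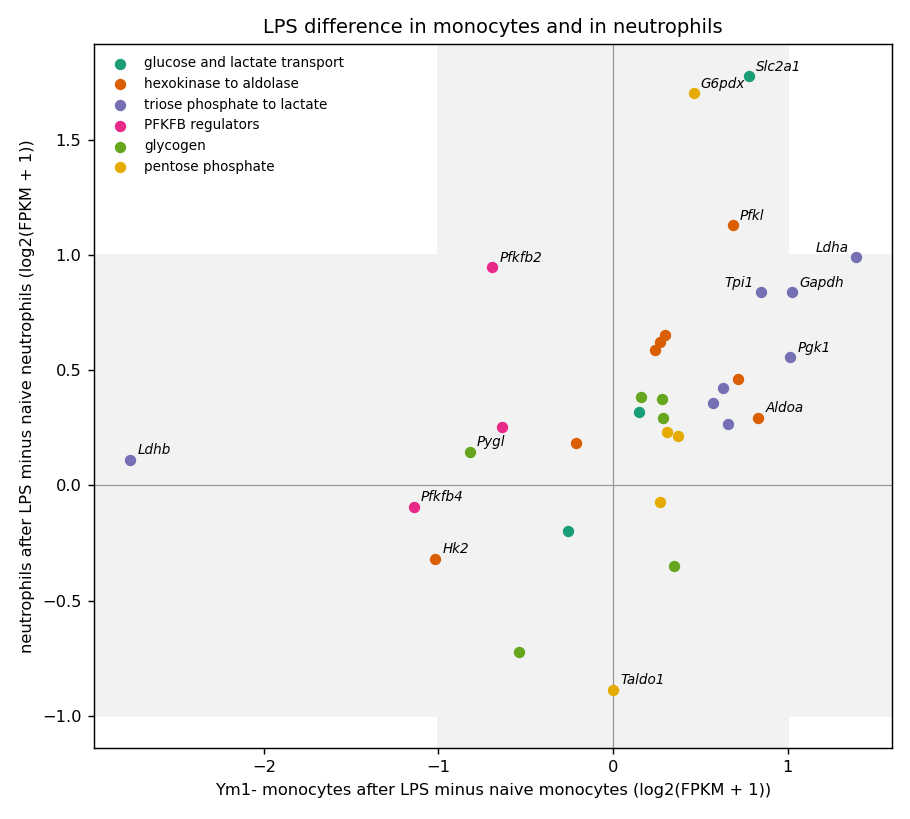
Difference after LPS in log2(FPKM + 1), in Ym1- monocytes against naïve monocytes on the horizontal axis and in neutrophils against naïve neutrophils on the vertical axis, with 1 point per gene for 33 genes and the band of less than 2-fold shaded. Slc2a1, G6pdx and Pfkl lie highest, Ldha, Gapdh and Pgk1 lie furthest to the right, and Ldhb lies at -2.76 in monocytes and 0.11 in neutrophils.

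The LPS comparisons in monocytes and in neutrophils share no library. Of 33 genes compared in both, 21 were above 0 in both, 5 below 0 in both and 7 opposite, beside 38.2%, 32.0% and 29.8% of the 9074 genes compared in both. None of the 33 was at least 2-fold higher in both or lower in both, beside 1.28% and 1.16% of those 9074 genes. Ldha came nearest, with 1.39 in monocytes and 0.99 in neutrophils, followed by Gapdh with 1.02 and 0.84. Slc2a1 was at 0.78 in monocytes and 1.78 in neutrophils, and G6pdx at 0.46 and 1.70. Whether the LPS difference of any gene differs between the lineages was not tested.

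On the scale of log2(FPKM + 1), Ym1+ and Ym1- monocytes after LPS differed by less than 2-fold in all 34 genes compared. Of all 10489 genes compared, 1.38% were higher by 2-fold or more and 1.18% lower. The median difference was 0.06 for the set and -0.06 for all genes, with a range from -0.81 for Pfkm to 0.87 for Ldhb. With a pseudocount of 0.1 Pfkm was at least 2-fold lower, and its 95% counting interval of the log2 ratio was -1.90 to -0.52. Pygl (0.77), Slc16a3 (0.48), Slc2a1 (0.40) and Pfkfb4 (0.39) lay highest after Ldhb, and Pgls (-0.51), Aldoc (-0.41), Ldha (-0.34) and Pgm2 (-0.32) lowest after Pfkm. For Ldhb the counting interval was 0.34 to 1.73. The plain FPKM ratio of Ldhb, Ym1+ over Ym1-, was 2.02, and that of Pfkm, Ym1- over Ym1+, was 2.30. The neutrophil markers, with a sum of 15878 in Ym1+ and 2344 in Ym1- monocytes, moved with this comparison, all 10 found reaching an FPKM of 1 in both, as did macrophage markers with 77.2 and 26.9 and 6 and 4 of 6 reaching it, and their part in these differences was not tested. Slc2a3, 119.9 times higher in neutrophils after LPS than in Ym1- monocytes, was at 2.14 in Ym1+ and 1.76 in Ym1- monocytes.

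Further genes of these pathways were read against the shares of all genes, 10.8% higher and 42.7% lower without treatment and 11% and 40.8% after LPS, and against the medians of all genes, -0.79 and -0.74. Of 20 further glycolysis and pyruvate genes compared between naïve neutrophils and naïve monocytes, 1 was at least 2-fold higher and 10 lower, and after LPS 2 of 18 were higher and 11 lower, with medians of -1.02 and -1.18. The gene that was higher without treatment was Adpgk, an ADP-dependent glucokinase, at 717 against 14.2 without treatment and 429 against 15.6 after LPS. Of 18 further glycogen genes, 4 were higher and 7 lower without treatment, and 3 of 16 higher and 5 lower after LPS, with a median of -0.20 in each comparison, above that of all genes. Ppp1r3b and Ppp1r3d, which encode subunits that bring protein phosphatase 1 to glycogen, were at 38.3 against 1.97 and 29.8 against 1.44 without treatment and at 32.8 against 2.11 and 52.4 against 2.02 after LPS. Of 10 further genes of the pentose phosphate pathway and of NADPH supply, 0 were higher and 6 lower without treatment and 0 higher and 5 lower after LPS, with medians of -1.69 and -1.08. Idh2, a mitochondrial source of NADPH, was at 1.97 against 75.4 without treatment and 6.70 against 122 after LPS. Of 9 regulators, 2 were higher and 2 lower in each comparison, with medians of -0.15 and 0.03, also above that of all genes, and with Myc, a transcription factor of growing cells, at 0.63 against 18.6 without treatment and 1.02 against 13.8 after LPS. Between neutrophils after LPS and naïve neutrophils, Pgm1 was at 65.4 against 24.8 and Me2 at 59.6 against 28.3, and between Ym1- and naïve monocytes Slc16a1, a lactate carrier, was at 11.5 against 4.43. Between Ym1+ and Ym1- monocytes 0 of these further genes were at least 2-fold apart, beside 2.56% of all genes.

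Promoters from RefSeq, GRCm38.p6, from 250 bases before to 50 after the start, were given for 34 of the 35 genes, with 50 promoters in all. The letters ACGTG, on either strand, occurred in promoters of 20 of the 34 genes, or 58.8%, beside 21.8% of all 27025 genes and 23.2% of the 17491 protein-coding genes. Counted by promoter, they occurred in 24 of 50, or 48.0%, beside 19.6% of all promoters and 20.9% of those of protein-coding genes. The promoters of the set had a median GC content of 60.7%, against 56.3% for protein-coding genes. Members of the set with the letters lay at most steps, among them Slc2a1, Slc16a3, Hk1, Hk2, Hk3, Aldoa, Gapdh, Pgk1, Pkm2, Ldha, Pfkfb3, Pygl and G6pdx. The letters occurred in 4 of 10 genes higher in neutrophils in both comparisons, 2 of 4 lower in both and 14 of the other 20. The E-box CACGTG, which contains ACGTG, occurred in 11.8% of the set against 8.91% of protein-coding genes, TTGCNNAA in 11.8% against 11.7%, TGACNNNGC in 14.7% against 14.8% and GGAAGT in 23.5% against 27.7%, each on either strand. GGAAGT occurred in 5 of the 10 genes higher in both comparisons (Hk3, Gpi1, Gys1, Pgd and Tkt), 1 of the 4 lower in both and 2 of the other 20. These matches describe letters in a window and were not tested for binding.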

How the data were processed

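RNA was measured in 5 libraries of sorted mouse BM cells, 1 per group, made with a strand-specific kit and run on a HiSeq sequencer according to the labels. What the authors deposited is a table of FPKM for 23234 symbols in each library. The submitters' processing notes list the build mm9 and the tools TopHat2 2.0.8 and Cufflinks 2.1.1. Options, annotation and read numbers: not given in the sources used here. As these values are already scaled by length and depth, no count model was used, and very abundant genes lower the FPKM of all others.

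Groups were taken from the labels. For 5 pairs of libraries, log2(FPKM + 1) was subtracted gene by gene where at least 1 library of the pair reached an FPKM of 1, with Python 3.11.15, numpy 2.4.6 and pandas 2.3.3. Differences of 2-fold or more were counted in the set and over all genes. No p-value was computed. The 35 genes, the further pathway lists, the marker lists and the motifs were chosen with earlier results of these data known. A gene of the set was given with its FPKM in all 5 libraries where it was at least 2-fold apart in any comparison or led its group in any library, and the others by range. Further pathway genes, at most 5 per comparison in order of size, were named if 2-fold apart and at 10 FPKM or more in 1 library. Erythroid and platelet markers summed to at most 54.5.

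Depth was estimated from the smallest steps between low FPKM values with GENCODE transcript lengths, and is rough. Relative to Ym1+ monocytes it was 62.9% for naïve monocytes, 44.4% for Ym1- monocytes, 96.6% for naïve neutrophils and 80.7% for neutrophils after LPS. An FPKM of 10 for a transcript of 1 kb then stands for 42.3 to 95.1 fragments. Intervals are exact at 95% and cover counting error only. A listed 0 may not mean absence, because the actin regulator Actr3, which every cell uses, is at 0 in Ym1+ and 635 in Ym1- monocytes. RefSeq promoters are of GRCm38.p6, which is not the build of the files, and were matched by symbol. The steps were tested on simulated data. Alternatives were a pseudocount of 0.1, an FPKM of at least 5, no filter, TPM and median-of-ratios scaling.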

Additional observations from a re-analysis of the deposited data

Results flagged for a closer look

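The FPKM of Ldhb in naïve monocytes was 33.9 and in Ym1- monocytes 4.13, a log2 difference of -2.76, and it was 6.87 in naïve neutrophils and 7.499 after LPS, a difference of 0.11, so the LPS difference was 2.88 higher in neutrophils than in monocytes. Pfkfb2 had 2.75 in naïve against 1.32 in Ym1- monocytes (-0.69) and 1.504 in naïve neutrophils and 3.82 after LPS (0.95), so the LPS difference was 1.64 higher in neutrophils. These genes drew attention because the signs of their LPS differences were opposite in the 2 lineages and the differences lay 2-fold or more apart. For Ldhb in neutrophils, however, the 95% counting interval of the log2 ratio, -0.34 to 0.60, includes 0 and the difference was 0.00 with TPM, so no direction is given there. For Pfkfb2 the interval was 0.86 to 1.87 in neutrophils and -1.89 to -0.33 in monocytes. With 1 library per group neither difference between the lineages was tested, and Ym1- monocytes had about 22.8 fragments for Ldhb and 20.3 for Pfkfb2.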

How the results depend on the processing

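No paired analysis was possible because the labels give no replicate numbers and each group has 1 library. Counts and medians of the set changed by no more than 1.5-fold under these alternatives except as follows. With median-of-ratios scaling, 20 genes were higher and 3 lower in naïve neutrophils against naïve monocytes (median 1.38), and after LPS 21 were higher, at the limit of 1.5-fold, and 2 lower (median 1.27). That scaling also left 2 genes lower after LPS in monocytes, without Hk2. With TPM, 9 were higher and 7 lower in neutrophils after LPS against Ym1- monocytes, 1 was lower after LPS in neutrophils (Taldo1) and 1 was higher after LPS in monocytes (Ldha). With a pseudocount of 0.1, 5 were higher after LPS in neutrophils, with Aldoc and Pfkfb2 added, and 1 was lower in Ym1+ monocytes (Pfkm). Both scalings multiply all values of a library by 1 factor, so genes near 2-fold cross it together. Of 169 differences of single genes, 62 changed by 1.5-fold or more with median-of-ratios scaling, 1 with TPM and 2 with the pseudocount. No difference of 2-fold or more changed sign, while several smaller ones did. The filters on low values change which genes are compared and no single difference. With 1 library per group, biological spread could not be estimated, and the depth limits Pfkm in neutrophils, Eno2 throughout and Ldhb and Pfkfb2 in Ym1- monocytes.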
